A study of Mus musculus with 62 samples.

Results

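The genes described here are 10 genes of protein folding in the endoplasmic reticulum: the chaperones and their partners Hspa5, Dnajb9, Dnajc3, Sdf2l1, Hsp90b1, Calr, Pdia3, Pdia4 and Pdia6, and the transcription factor gene Xbp1. They were taken by name, and all 10 had a row among the 19112 gene rows of the table. Their levels were described over 50 of 62 single-cell libraries, those in which synthetic ERCC spike-in RNA took less than 20% of all counts. All libraries came from 1 untreated adherent culture of KPC1199-EGFP at passage 9, a mouse pancreatic cancer line with a C57BL\6 background that expresses EGFP. The study used this culture as the single-cell RNA reference for a line that was injected into the pancreas of mice. Cells were captured and their cDNA amplified on the Fluidigm C1 system, and no other treatment, genotype or time point was included. Each library is 1 cell, 1 culture has no replicate culture, and therefore values over cells are given as descriptions with no p-value.

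Proteins that enter the secretory pathway fold in the endoplasmic reticulum, where chaperones hold them and disulfide isomerases join their cysteines. When unfolded protein accumulates there, the sensors IRE1, PERK and ATF6 start the unfolded protein response. IRE1 removes a short intron from Xbp1 mRNA, and the protein made from the spliced mRNA activates genes of folding and degradation, while ATF6 activates many of the chaperone genes through the endoplasmic reticulum stress element. Exocrine pancreas carries a heavy load of secreted protein, and mice that lack Xbp1 there lose acinar cells.

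The 50 libraries held between 2153895 and 12868806 gene counts, with a median of about 7194660, and had between 6832 and 11068 genes above 0. Markers of epithelial and duct cells were abundant: Krt8, Krt18, Krt19 and Cdh1 were above 0 in all 50 libraries, and Epcam in 18. Of 4 acinar genes with a row, Cpa1 and Amy2a5 were at 0 in all 50 libraries, Cela1 was above 0 in 11 with a highest value of 64.6 CPM (counts for each 1000000 gene counts), and Bhlha15 in 20 with a highest value of 0.432 CPM. The endothelial genes Pecam1 and Cdh5 and the T cell gene Cd3e were at 0 in all 50. Of the other leukocyte markers, Ptprc was above 0 in 1 and Cd68 in 10, with a highest value of 33.3 CPM for Cd68. The summed level of the fibroblast markers had a median of 0.229 CPM and a highest value of 75.02 CPM, and Col1a1 was above 0 in 41 libraries at no more than 1.01 CPM. That of the leukocyte markers had a median of 0 and a highest value of 33.3 CPM. The 1 B and plasma cell marker with a row did not pass 2.43 CPM.

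Detection in 25 or more of the 50 libraries held for all 10 genes and for 48.6% of all gene rows. Of the 10, 6 were above 0 in every library, against 11.4% of gene rows: Hspa5, Sdf2l1, Hsp90b1, Calr, Pdia3 and Pdia6. The other 4 were at 0 in some cells. All 10 were above 0 together in 35 libraries, 1 was at 0 in 11 libraries and 2 were at 0 in 4. Together the 10 genes took a median of 0.370% of gene counts, with a lowest share of 0.122% in library 5 and a highest of 0.696% in library 11.

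Hspa5 encodes BiP, the Hsp70-type chaperone of the endoplasmic reticulum, which also keeps the stress sensors inactive. Its level was lowest at 140 CPM in library 36, had a median of 613 CPM and was highest at 1327 CPM in library 14. The highest cell was thus 9.46-fold above the lowest, and the mean was 9.19 ± 0.75 (SD, n = 50 cells) on the log2(CPM + 1) scale used below for all means. Between 302 and 10474 counts stood behind each value. Counting error alone would give a coefficient of variation of 1.52% at these depths, and the coefficient over cells was 47.8%, so the spread was far wider than counting error. That counting error treats amplified reads as independent molecules and is therefore a lower limit of the technical error.

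The J-domain partners of BiP differed in how often they were found. Dnajb9, also known as ERdj4, was above 0 in 38 of 50 libraries (76%, exact Clopper-Pearson 95% interval 61.8 to 86.9, covering the sampling of cells only). Its lowest level was 0, its median 25.6 CPM and its highest 137 CPM in library 29. In the 12 libraries at 0 a count of 3 would have stood for 0.233 to 0.868 CPM, and the lower quartile of all 50 cells was 0.751 CPM. Dnajc3, or p58IPK, which also restrains PERK, was at 0 in libraries 5, 17 and 59, with a median of 74.6 CPM and a highest value of 253 CPM in library 14. Sdf2l1, which forms a complex with J-domain proteins and BiP, was in all 50 libraries and ranged from 32.4 CPM in library 40 over a median of 73.5 to 181 CPM in library 50. Means were 3.87 ± 2.56 for Dnajb9, 5.83 ± 1.90 for Dnajc3 and 6.28 ± 0.71 for Sdf2l1 (SD, n = 50). The libraries at 0 set much of the wide SD of Dnajb9, which was 1.51 over the 38 libraries above 0.

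Hsp90b1 encodes GRP94, the Hsp90-type chaperone of the endoplasmic reticulum, which folds integrins and Toll-like receptors. It was lowest at 149 CPM in library 5, had a median of 648 CPM and was highest at 1913 CPM in library 17, with a mean of 9.24 ± 0.68. Calr encodes calreticulin, a calcium-binding lectin chaperone for glycoproteins. It was lowest at 71.9 CPM in library 17, had a median of 436 CPM and was highest at 1152 CPM in library 41, with a mean of 8.74 ± 0.71. Library 17 thus held both the highest Hsp90b1 and the lowest Calr of the 50 cells. The highest cell stood 12.8-fold above the lowest for Hsp90b1 and 16.01-fold for Calr.

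Of the 3 disulfide isomerases, Pdia3 and Pdia6 had a smaller SD over cells than Pdia4. Pdia3, or ERp57, which works on glycoproteins with calreticulin and calnexin, was lowest at 348 CPM in library 5, had a median of 1005 CPM and was highest at 1969 CPM in library 6. Its mean of 9.90 ± 0.56 had the smallest SD of the 10 genes. Pdia6, which also acts on the sensor IRE1, ranged from 104 CPM in library 36 over a median of 371 CPM to 848 CPM in library 6, with a mean of 8.51 ± 0.66. Pdia4, or ERp72, was at 0 in library 19 and at 5.11 CPM in library 36, had a median of 156 CPM and was highest at 425 CPM in library 58, with a mean of 6.86 ± 1.58. A further cell held 6.19 CPM, and these 3 cells lay well under the other 47, the next of which held 37.7 CPM.

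Xbp1 was above 0 in 47 of 50 libraries (94%, interval 83.5 to 98.7). Its lowest level was 0, in libraries 5, 58 and 60, its median 158 CPM and its highest 480 CPM in library 11, with a mean of 6.54 ± 2.30. A count of 3 would have stood for 0.364 to 0.868 CPM in the libraries at 0. Library 40 followed at 0.272 CPM, and the quartiles of the 50 cells were 79.9 and 230 CPM. In a few cells Xbp1 was thus at or near 0 CPM, while the upper quartile was 2.88-fold the lower one.

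**Figure D1:**
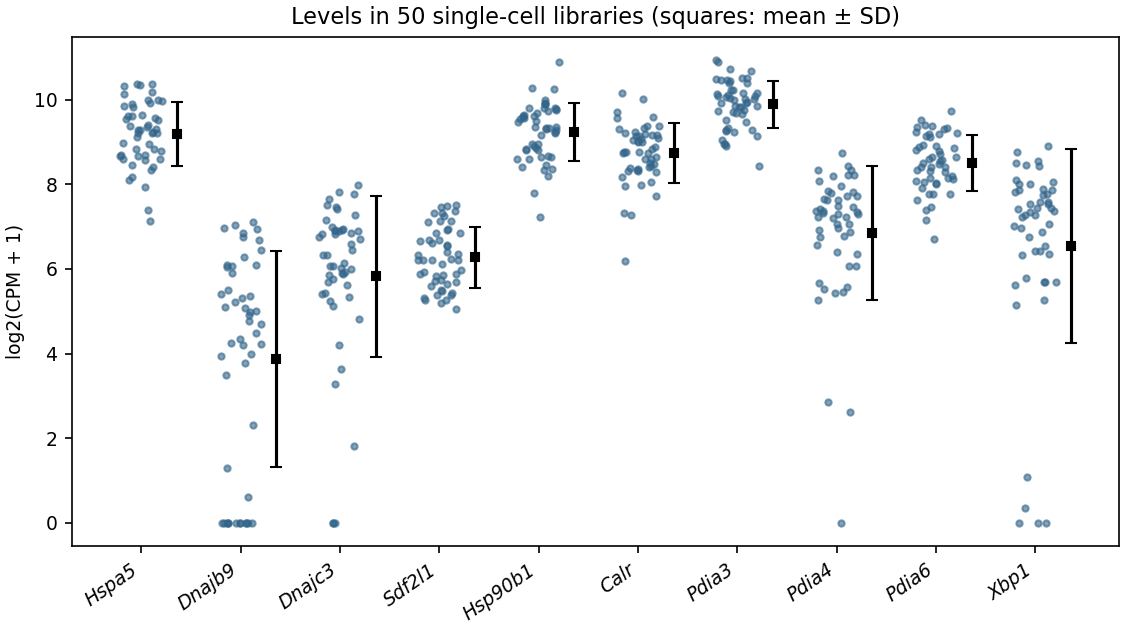
Levels of the 10 genes as log2(CPM + 1) on the y axis, 1 point per library (50 single cells), with a square and bar for mean ± SD. Of the 10 genes, 6 have no point at 0, whereas Dnajb9 has 12, Dnajc3 and Xbp1 have 3 each and Pdia4 has 1.

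Counts depend on transcript length, so levels were compared between genes only per kilobase of a GENCODE transcript of each gene. On this scale Pdia3 had the highest median, 363 CPM per kilobase, and was the highest of the 10 in 39 of 50 cells and among the top 3 in all 50. Hsp90b1 followed at 229, Calr at 199.7, Pdia6 at 170.5 and Hspa5 at 167 CPM per kilobase. Xbp1 at 74.4, Sdf2l1 at 66.3 and Pdia4 at 65.1 CPM per kilobase formed a lower set, and Dnajc3 at 14.5 and Dnajb9 at 10.4 were lowest. The quartile ranges of neighbours in this order overlapped throughout, apart from the steps from Hspa5 to Xbp1 and from Pdia4 to Dnajc3. With coding length in place of transcript length, 7 of 10 genes kept their place. Hsp90b1 moved from place 2 to 5, Calr from 3 to 2 and Hspa5 from 5 to 3. Per coding kilobase the median was 269 for Hsp90b1 and 198 for Xbp1, and 81.2 for Pdia4 and 49.3 for Dnajc3. Quartile ranges were compared on transcript length only, so the steps named above are described for that scale alone.

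**Figure D2:**
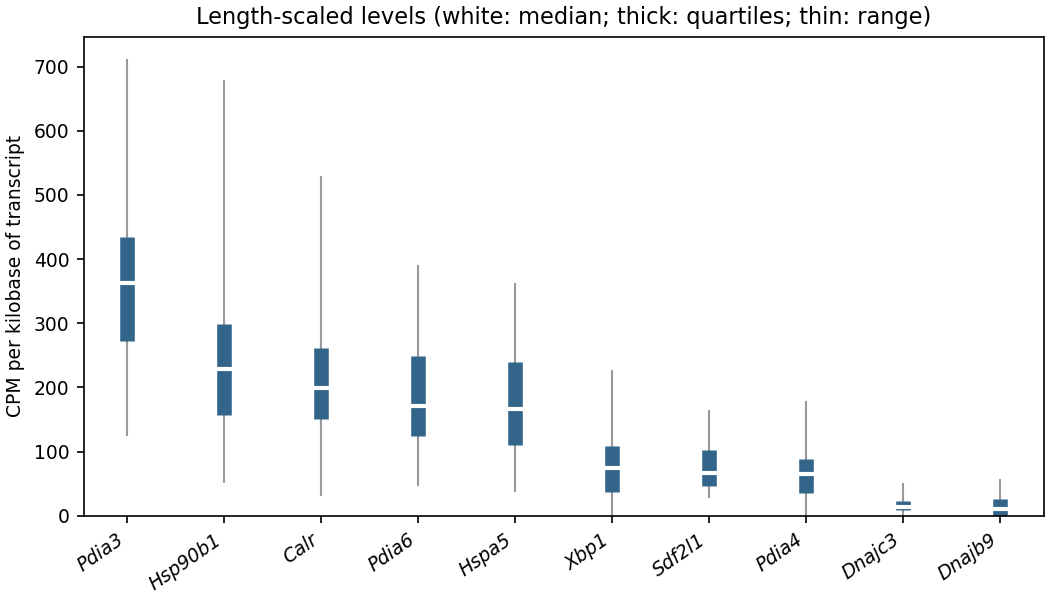
CPM per kilobase of transcript for the 10 genes over 50 libraries, on a linear axis from 0, with the median in white, the quartiles as a thick bar and the range as a thin line. Pdia3 has the highest median at 363. On transcript length the bars fall into 3 sets, within which the quartile ranges of neighbours overlap.

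The spread of each gene over cells was set against genes of like level by the residual of its squared coefficient of variation over a smoothed trend, ranked among 12012 genes above 0 in at least 10 of the 50 libraries. Of the 10 genes, 9 lay above the middle of this ranking, with a median percentile of 81.0. Hspa5 stood at percentile 93.7, Hsp90b1 at 93.1, Pdia3 at 87.1, Xbp1 at 86.4 and Calr at 85.3. Sdf2l1 stood at percentile 15.4, the lowest of the 10. Pdia6, Pdia4, Dnajb9 and Dnajc3 lay between 60.1 and 76.7.

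Cells that were high in one of these genes tended to be high in several others. Over the 45 pairs of the 10 genes the mean Pearson r of log2 levels across 50 cells was 0.238 and the median 0.271, and the median over all pairs of the 12012 genes was 0.0237. An r of at least 0.3 was found for 20 of 45 pairs (44.4%), against 3.58% of all gene pairs. Leaving out 1 library moved single pairs across 0.3 both ways, so this count depends on single cells. Hspa5 with Pdia6 fell to 0.214 without library 36 and Dnajc3 with Pdia3 to 0.234 without library 5. Hsp90b1 with Calr rose to 0.383 without library 17. Among the 4927 genes at or above the mean level of Dnajb9, the lowest of the 10, 7.04% of pairs reached 0.3. All points of such a correlation come from 1 culture, and the values of each library share its depth and total.

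The strongest pairs joined the Hsp90-type chaperone and the isomerases. Hsp90b1 with Pdia6 had r = 0.517 and Spearman rho = 0.480, and Pdia3 with Pdia6 had r = 0.503 and rho = 0.432. Hspa5 had r = 0.453 with Pdia3, 0.409 with Hsp90b1, 0.409 with Calr and 0.381 with Pdia4. Calr and Dnajc3 had r = 0.429, which was 0.218 over the 47 cells in which both were above 0 and 0.259 without library 17. Hsp90b1 and Calr had r = 0.122, a value that single cells moved both ways. It was 0.383 without library 17, which held the highest Hsp90b1 and the lowest Calr, and -0.0057 without library 5. Among the 6 genes above 0 in every cell, 10 of 15 pairs reached 0.3 and the mean r was 0.329.

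Dnajb9 had low values with most of the other genes. Its r was between -0.111 and 0.203 with all of them except Hsp90b1, with which it was 0.429 (0.218 over the 38 cells in which both were above 0). Its mean r over 9 pairs was 0.0547. Against the mean z of the other 9 genes, where z is each gene's level in SD units from its mean, Dnajb9 had r = 0.0908, whereas Pdia3 had 0.588, Hsp90b1 0.550, Pdia6 0.545 and Hspa5 0.539. The others were 0.471 for Pdia4, 0.454 for Calr, 0.368 for Dnajc3, 0.319 for Xbp1 and 0.306 for Sdf2l1. Without the 2 cells farthest from the median of that mean z, Dnajb9 was no longer the lowest: its r was 0.253, beside 0.171 for Xbp1, 0.245 for Dnajc3 and 0.261 for Sdf2l1, and the remaining 6 genes lay between 0.327 and 0.530. Dnajb9 also had r = 0.364 with the number of genes above 0 in a cell. Pdia4 had 0.391 with that number, beside its 0.471 with the other genes. The part of this relation in the pattern of Dnajb9 was not tested.

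**Figure D3:**
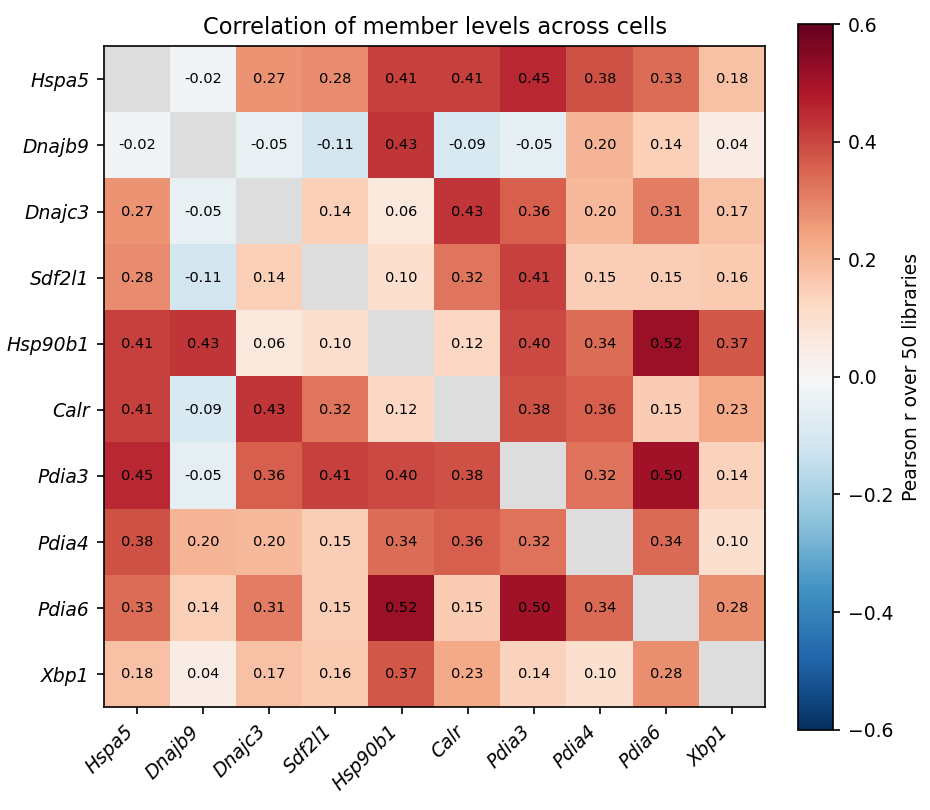
Pearson r of log2(CPM + 1) over 50 libraries for each pair of the 10 genes, on a color scale from -0.6 to 0.6 and with the value in each cell. The Dnajb9 row lies between -0.111 and 0.203 apart from Hsp90b1, and the pair of Hsp90b1 and Pdia6 has the highest r, 0.517.

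Cells were then ordered by all 10 genes together. By the mean z of the 10 genes, library 5 was lowest at -1.77, followed by library 36 at -1.21 and library 19 at -1.06, and library 6 was highest at 1.09, followed by library 11 at 0.998. Library 5 held Hspa5 at 244 CPM, Hsp90b1 at 149 CPM and Xbp1 at 0, while library 6 held them at 930, 1228 and 431 CPM. Dnajb9 was at 66.8 CPM in library 5, 67.3 in library 36, 0 in library 19, 122 in library 6 and 0 in library 11, so that low and high cells overlapped for this gene. Library 36 had the fewest gene counts of the 50, 2153895, whereas library 5 had 5647722 gene counts and 9044 genes above 0. Without library 5 the mean pairwise r was 0.194, and without libraries 5 and 36 it was 0.176.

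The mean z of the 10 genes had r = 0.0956 with log2 gene counts, 0.214 with the number of genes above 0 and -0.245 with the spike-in share. Its lowest r with any gene above 0 in at least 25 libraries was with Rn45s, the ribosomal RNA precursor (r = -0.567, rho = -0.461), a gene chosen after its values were seen. Rn45s took 0.119% to 0.417% of gene counts, and library 5 held the highest share. With the Rn45s level regressed out of every gene the mean pairwise r of the 10 genes was 0.154. Pdia4 had the strongest relations of the 10, at r = -0.530 with Rn45s (rho = -0.489) and r = -0.505 with the spike-in share (rho = -0.265). The part of Rn45s and of the spike-in share in these patterns was not tested. S100a11, a calcium-binding protein also chosen after its values were seen, had r = -0.496 with the mean z.

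Promoter sequence was described next. The element searched for is already known from chaperone genes of this kind, so its presence in these genes is no independent finding. ATF6 and its partner NF-Y are known to bind the endoplasmic reticulum stress element (ERSE), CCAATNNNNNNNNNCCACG, whose 10 fixed letters were searched on both strands of RefSeq promoter windows of build GRCm38.p6, from 250 bases before to 50 bases after the start. All 10 genes had a window. The ERSE letters stood in 5 of 10, namely Hspa5, Dnajc3, Hsp90b1, Calr and Pdia6, and in 39 of all 32851 windows (0.119%). Hsp90b1 held them at 2 places. The stretches that hold them are shown 5′ to 3′ on the strand of the gene, with the fixed letters in capitals, because they are the sequence these chaperone genes have in common.
Hspa5, chr2:34772020-34772048, plus strand: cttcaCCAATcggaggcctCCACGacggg
Dnajc3, chr14:118937807-118937865, plus strand: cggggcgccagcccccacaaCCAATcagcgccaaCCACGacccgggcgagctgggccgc
Hsp90b1, chr10:86705513-86705676, minus strand: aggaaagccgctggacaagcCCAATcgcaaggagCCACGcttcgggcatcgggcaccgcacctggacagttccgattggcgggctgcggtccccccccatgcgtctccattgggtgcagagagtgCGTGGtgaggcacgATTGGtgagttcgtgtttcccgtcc
Calr, chr8:84847055-84847113, minus strand: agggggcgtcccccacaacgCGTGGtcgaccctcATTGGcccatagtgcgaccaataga
Pdia6, chr12:17266471-17266529, plus strand: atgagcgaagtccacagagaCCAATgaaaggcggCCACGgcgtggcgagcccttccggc
In Calr and at the second place in Hsp90b1 the element lies on the opposite strand, so its capitals read CGTGG and ATTGG. The Hspa5 element begins 65 bases before the RefSeq start and lies inside an exon of a longer GENCODE transcript, so fewer bases are shown there.

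With 1 difference allowed among the 10 fixed letters, Pdia3 and Pdia4 also had a match, which made 7 of 10 genes against 1.5% of windows. Dnajb9, Sdf2l1 and Xbp1 had none within this window. ERSE-II, in which ATTGG and CCACG are separated by 1 base, and the UPRE letters TGACGTGG were searched on both strands in the same way. They were in none of the 10 windows, and in 0.0365% and 0.676% of all windows. ERSE-II shares CCACG with the ERSE, and each was counted on its own. Among other genes of the lists below, named for this match, the ERSE letters stood in the windows of Canx, Creld2, Syvn1, Ero1b and Derl3. Across cells, the 10 pairs among the 5 genes with the ERSE letters had a mean r of 0.301 and the 25 mixed pairs 0.254. The 10 pairs among the other 5 genes had 0.136, a difference that was not tested. Those 5 include Dnajb9 and Xbp1, whose mean r over all their pairs was 0.0547 and 0.185. The pairs among them without Dnajb9 and Xbp1 had r = 0.412 (Sdf2l1 with Pdia3), 0.325 (Pdia3 with Pdia4) and 0.148 (Sdf2l1 with Pdia4).

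Xbp1 was compared with its possible targets. Over 50 cells its level had r = 0.319 and rho = 0.255 with the mean z of the 9 chaperone genes. The r was 0.171 without libraries 5 and 36, the 2 farthest from the median on that axis. It was 0.180 without library 5 alone, a cell at 0 for Xbp1 and lowest in the chaperones. Libraries 58 and 60, also at 0 for Xbp1, had a mean z of the chaperones of -0.03 and 0.58. Without library 60 the r was 0.421, so single cells at 0 moved it both ways. Over the 47 cells with Xbp1 above 0 the r was 0.327 and rho 0.262. Of 9 pairs with a chaperone, 1 reached r of at least 0.3 (Hsp90b1, 0.370, and 0.237 without library 5), and 2.85% of the other 12011 genes did so with Xbp1. Pdia6 followed at 0.278 and Calr at 0.228, and Dnajb9, a known target of spliced Xbp1, was last at 0.0424.

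**Figure D4:**
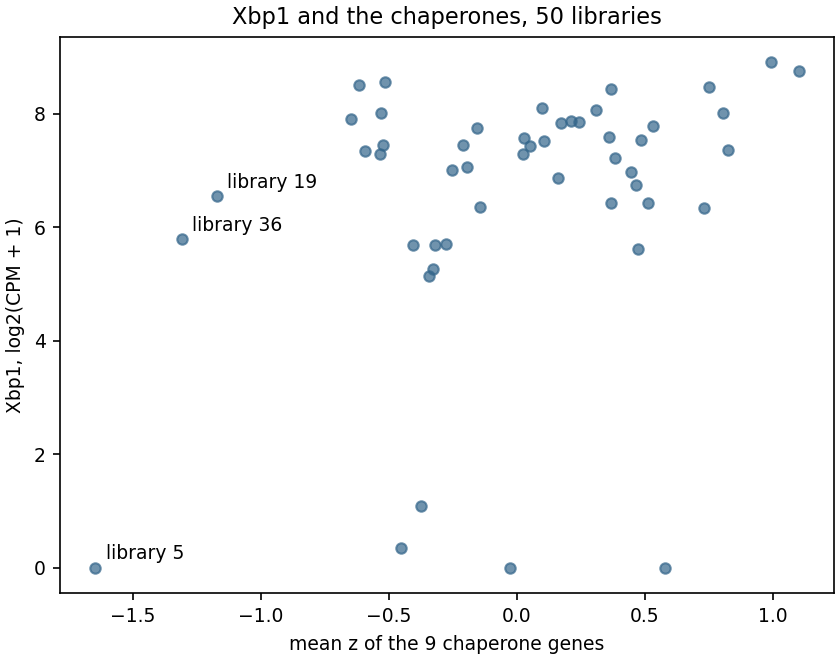
Xbp1 as log2(CPM + 1) on the y axis against the mean z of the 9 chaperone genes on the x axis, 1 point per library (50). Library 5 lies at 0 for Xbp1 and at the lowest mean z, and r falls from 0.319 to 0.180 without it.

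Gene counts add unspliced and spliced Xbp1 mRNA together, and the level therefore does not show IRE1 activity. The stretch that IRE1 removes is 26 bases long, which is no multiple of 3 and so shifts the reading frame. It is shown in capitals in the coding sequence of the GENCODE M21 reference transcript of Xbp1 (chromosome 11, plus strand, coding bases 479 to 504), since it is the part of the message that carries the signal and that these counts cannot see.
Xbp1: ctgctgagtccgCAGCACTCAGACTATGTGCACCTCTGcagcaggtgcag

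Genes most like the 10 across cells were then named among those above 0 in at least 25 libraries. Against the mean z of the 10, the nearest was Dnajb11, the J-domain partner of BiP also called ERdj3 (r = 0.595, rho = 0.457). Manf, a secreted protein that binds BiP, had r = 0.539 and rho = 0.532, and Serp1, which protects membrane proteins under stress, had r = 0.540 and rho = 0.480. The remaining 7 of the top 10 were Ndfip1, Fh1, Tpst2, Pde6d, Faim, Psmd2 and Sacm1l, with r from 0.532 to 0.583 and Spearman rho from 0.246 for Faim to 0.549 for Tpst2. In all, 622 of 12002 other genes (5.18%) had an r of at least 0.3 with the mean z, and 350 had with the Rn45s level regressed out.

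For Hspa5 alone, 5 of the other 9 genes had an r of at least 0.3, against 2.09% of 12011 genes. Single cells moved this count both ways. Without library 36 the r was 0.270 with Pdia4 and 0.214 with Pdia6, and without library 24 it was 0.339 with Sdf2l1. Pdia3 ranked 5 of 9281 genes, Hsp90b1 26, Calr 27, Pdia4 41 and Pdia6 113, and Xbp1 ranked 1124 and Dnajb9 5334. Ahead of Pdia3 stood Sept6, Lix1l, Rrp1 and Leo1 (r = 0.469 to 0.503). For Xbp1 the nearest were Ccdc6 (r = 0.684, rho = 0.429), Pde6d, Acbd3, Sptan1 and Tlcd1 (r = 0.581 to 0.616), and none of the chaperones was among the nearest 100; Hsp90b1 ranked 110.

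Further genes of the pathway were followed in 5 lists of the endoplasmic reticulum, which held 81 genes with a row, 76 of them above 0 in at least 25 libraries. Of 80 tested, 19 (23.8%) had an r of at least 0.3 with the mean z of the 10 genes, against the 5.18% given above and 7.99% of genes at or above the level of Dnajb9. Endoplasmic reticulum-associated degradation, which extracts misfolded proteins for the proteasome, had 9 of 20 (45%) and a median r of 0.230, and the median over all tested genes was 0.0482. Vcp, the ATPase that pulls out substrates, had r = 0.454 at a level of 8.12 ± 0.70, and the mannosidase-like proteins Edem2 and Edem1 had 0.397 and 0.394. Ubxn4 and Ufd1, which work with Vcp, had 0.237 and 0.0970. Folding and redox genes reached 0.3 in 5 of 23 cases (21.7%) with a median r of 0.166. Among them Calu, a calcium-binding protein, had r = 0.0427 and calnexin (Canx) had r = 0.321. The archetypal isomerase P4hb had r = 0.295 at a level of 9.50 ± 0.52, while the BiP exchange factor Sil1 had r = 0.464. Among their own genes the lists had low values. The mean pairwise r was 0.0281 for folding and redox and 0.0904 for degradation, beside 0.238 for the 10 genes. For translocation it was 0.0235, for N-glycosylation 0.0517 and for the sensors and their processing enzymes 0.00167.

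Genes of translocation had a median r of 0.111 with 3 of 17 at 0.3 or more, namely Serp1, the channel subunit Sec61a1 (0.476) and the signal peptidase subunit Sec11a (0.304). N-glycosylation genes had a median r of 0.251 with 2 of 10, namely the oligosaccharyltransferase subunits Ddost (0.474) and Stt3a (0.366). The sensors and their processing enzymes reached 0.3 in 0 of 10 cases, too few to read against the 5.18% of all tested genes. Their median r was 0.0769. Of the sensors themselves, chosen after their values were seen, Ern1 (IRE1) was above 0 in 7 of 50 libraries, Eif2ak3 (PERK) in 11 and Atf6 in 44. Rtcb, the ligase that joins spliced Xbp1 mRNA, was above 0 in 49 at a level of 6.40 ± 1.40. Hyou1, an Hsp70-like chaperone of the same compartment that was likewise picked with its values known, had a median of 1.22 CPM and counts above 0 in 49 libraries.

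In the PERK-ATF4 arm 0 of 19 tested genes reached 0.3, a count too small to read against the 5.18% of all tested genes, and the median r was 0.0540 beside 0.0482 for all tested genes. Psat1 of serine synthesis had r = 0.054, the asparagine synthetase Asns -0.0107 and the amino acid transporter subunit Slc3a2 0.196. The stress genes Nupr1, Trib3 and Atf5 had 0.225, 0.219 and 0.209. Atf4 itself, picked with its values known, had r = 0.154 and rho = 0.334. The ATF4 list had a mean pairwise r of 0.169 among its own genes. Cytosolic and mitochondrial chaperones had a median r of 0.178 with the 10 genes, and 3 of 18 (16.7%) reached 0.3, the Hsp90 co-chaperone Stip1 (0.463), Dnaja1 (0.394) and Hspa1b (0.325), whose reads may be shared with its near-identical copy Hspa1a. Their mean pairwise r was 0.0796. Differences between these lists and the 10 genes were not tested. Of secreted cargo, 0 of 7 genes reached 0.3, again too few to read against 5.18%, and the median r was 0.0748. Spp1, or osteopontin, had r = 0.0748 (rho = -0.0559) and clusterin (Clu) -0.146 with the mean z, while the chemokine Cxcl5 had 0.236, transferrin (Trf) 0.232 and the plasminogen activator Plat 0.197.

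**Figure D5:**
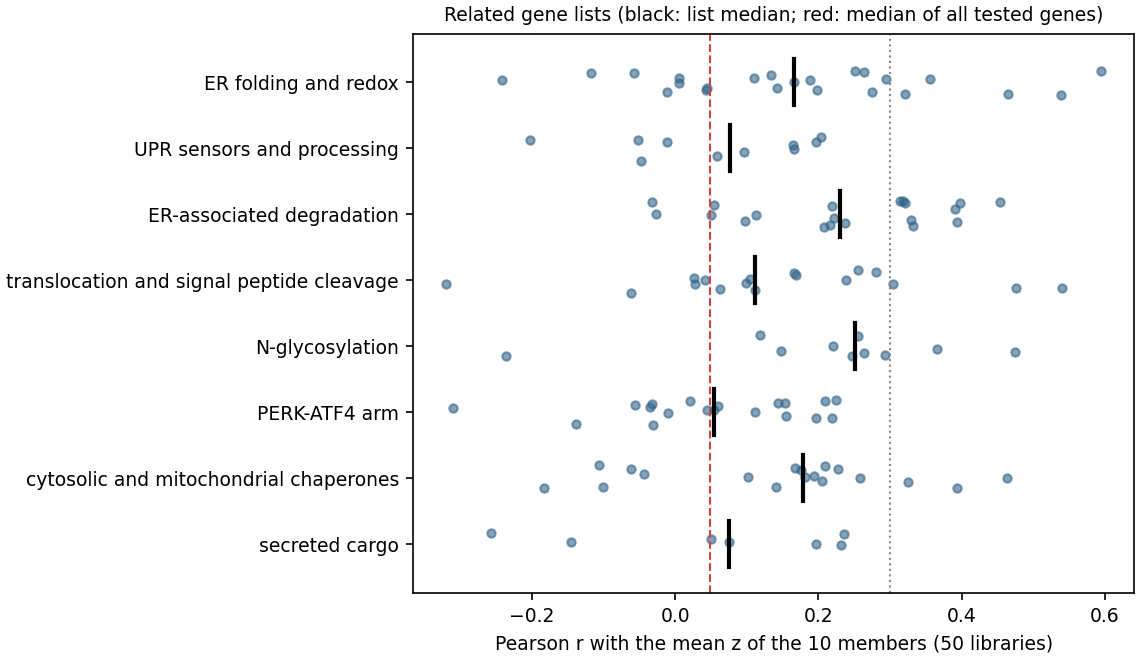
Pearson r of each gene of 8 related lists with the mean z of the 10 genes over 50 libraries, with list medians in black, the median of all tested genes (0.0482) as a red dashed line and 0.3 as a dotted line. Degradation and N-glycosylation genes have the highest medians (0.230 and 0.251), and the median of the PERK-ATF4 arm is 0.0540.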

How the data were processed

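Single-cell RNA was measured in 62 libraries. The authors deposited 1 table of estimated counts with gene symbols as rows. The submitters' processing notes name kallisto and mm9; its version, its annotation and the step to gene rows are not given in sources used here. Of the deposited values above 0, 66.18% were whole within 1e-06. From these, CPM was computed over gene rows without the 65 spike-in rows and put on a log2 scale after adding 1. No count model was fitted and no p-value computed, since 1 culture gives no replicate. Variability used a lowess trend (fraction 0.3, statsmodels 0.14.6). Lengths came from the GENCODE M21 protein-coding transcript with the longest coding part, and promoters from RefSeq GRCm38.p6. Both builds differ from that of the counts and were matched by symbol. The correlation steps were tested on simulated counts.

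The members and lists were chosen with earlier results of these data known. Genes to name were taken from the 10 members, the 3 of highest level and the 3 of highest r in each list (not all are printed), the 10 nearest to the mean z and the 5 nearest to Hspa5 and to Xbp1. Date-like row names were restored (Sept6). No pair of libraries held identical values. Alternatives covered scaling, pseudocount, libraries used, detection and label-number blocks.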

Additional observations from a re-analysis of the deposited data

Results flagged for a closer look

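The 10 genes also had signal in the 12 libraries left out above for their high spike-in content (20% or more), which had a median of 362304 gene counts. Of these 12 libraries, Hsp90b1 and Calr were above 0 in 10 each, Hspa5 in 9, Pdia3 in 7, Pdia6 in 6, Dnajc3, Sdf2l1 and Pdia4 in 4 each, Xbp1 in 2 and Dnajb9 in 1. The counts above 0 were uneven: Hspa5 reached 4098 CPM in library 8 and Hsp90b1 4413 CPM in library 13, above every one of the 50 libraries. Library 43 held all 10 genes, with Hspa5 at 491 CPM, Pdia3 at 735 CPM, Xbp1 at 244 CPM and Dnajb9 at 33.4 CPM, from 389192 gene counts. Rn45s took between 0.626% and 15.2% of gene counts in the 12.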

How the results depend on the processing

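The choice of libraries mattered most. Over all 62 libraries the mean pairwise r of the 10 genes was 0.600 and the r of Xbp1 with the chaperones 0.709, and 5 rather than 9 of the 10 genes lay above the middle of the variability ranking. This setting adds the 12 spike-in-rich libraries. With each library left out in turn, the mean pairwise r ran from 0.194 to 0.264 and the r of Xbp1 from 0.180 to 0.421, both lowest without library 5, and without the 2 farthest libraries the r of Xbp1 was 0.171. After the data were seen, Rn45s was regressed out, which gave 350 genes in place of 622 at an r of at least 0.3; the cause was not tested. Size factors, pseudocounts of 0.1 and 10, Spearman rho, regression on detected genes and centring within blocks of 12 label numbers changed the mean pairwise r by no more than 0.1, with values from 0.232 to 0.259. All 10 genes were still above 0 in at least 50% of libraries at 1 CPM, over 62 libraries, and after thinning to 100000 counts, where Dnajb9 was above 0 in 30 libraries in place of 38. No paired analysis was possible because the labels give 1 group. Dnajb9 was at 0 in library 24, the deepest, and its level had r = -0.0774 with log2 gene counts. The part of sequencing depth and of transcript loss in capture in its zeros, and in those of Xbp1, was not tested. An r across 50 cells of 1 culture says nothing of other cultures.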
